A study of Mus musculus with 12 samples.

Results

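The genes of prostaglandin synthesis, breakdown and response were followed across 12 mouse tumour libraries from 4 treatment groups. The set holds 10 genes taken by name from the 53801 genes of the deposited table. They are the synthesis genes Ptgs1, Ptgs2, Ptges, Ptges2, Ptges3, Hpgds and Tbxas1, the breakdown enzyme gene Hpgd, and the receptor genes Ptger2 and Ptger4. They were chosen by gene name, and the list was drawn up with earlier results of these libraries known, so it was also selected on measured FPKM values, among them a higher level of Ptgs1 with cisplatin. Which other comparisons were in view at that choice is not recorded. The differences of Ptgs1 between libraries with and without cisplatin, the combination included, are therefore a description, with no test. A total of 7 members had a mean level of at least 1 FPKM (fragment count divided by transcript length in kilobases and by a scaling total of the library) and were tested. The other 3, Hpgd, Ptger2 and Ptger4, fell below that level and are given by their values.

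Cells of the transplantable mouse lung cancer line LLC (Lewis lung carcinoma), mixed with Matrigel, formed tumours in both flanks of female C57BL/6 mice aged 6 to 8 weeks. The 4 groups received vehicle, cisplatin alone (platinum chemotherapy, which damages DNA), brivanib alone (which blocks the kinases of VEGF and FGF receptors) or cisplatin and brivanib combined. Drugs went into the peritoneum 2 times per week for 4 weeks, starting at a total tumour volume of at least 100 mm3. Doses were not stated in the labels used. Each group had 6 mice with 10 to 12 tumours, and 3 libraries of each group were analysed. The labels do not tie libraries to mice, so a p-value here reflects the spread among these samples alone, part of which may be technical. All groups carried the same line in hosts of the same strain. Of 5 lung epithelium markers, Sftpc, Nkx2-1 and Scgb1a1 were listed at 0 in every library and the others reached at most 0.212 FPKM. These markers do not settle the labelled origin, which was not tested. Of 7 epithelial and carcinoma markers, the mesenchymal filament gene Vim was at 814 to 1236 FPKM and Cdh1 at 1.12 to 3.23 FPKM. Krt8, Krt18, Epcam, Krt19 and Cldn4 each had a mean below 1 FPKM.

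The libraries held 17160875 to 30942897 recovered fragments. Brivanib 5 had 38.3% of its fragments on ribosomal-like features, against 0.316% to 0.692% in the other libraries. Rescaling every library to the same FPKM total moved the median log2 difference over the tested genes to -0.34 for brivanib against vehicle and 0.31 for the combination against brivanib. On the deposited scale, used here, these medians were -0.01 and 0.04.

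As background, prostanoids are short-lived lipid signals made from arachidonic acid, which phospholipases A2 free from membranes. The cyclooxygenases COX-1 (Ptgs1), usually present at a steady level, and COX-2 (Ptgs2), which is induced by inflammatory and growth signals, turn it into prostaglandin H2. Terminal synthases then make prostaglandin E2 (PGE2), prostaglandin D2, prostacyclin or thromboxane. In tumours PGE2 acts through the receptors EP2 (Ptger2) and EP4 (Ptger4), which raise cyclic AMP, and it is known for dampening antitumour immune cells.

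The promoters of Ptgs1, Ptgs2 and Ptges are shown because these genes supply the main steps to PGE2 and their levels were spread over the libraries in different ways. RefSeq windows on GRCm38.p6 were found for all 10 members. Each window runs from 250 bases before to 50 bases after an annotated transcript start. It is 300 bases long and is written 5′ to 3′ on the strand of the gene. For Ptges this is the start of the coding transcript of 3647 bases, at 30903297, which lies inside the span of the gene. The windows lie at chr2:36230176-36230475 on the plus strand for Ptgs1, chr1:150099781-150100080 on the plus strand for Ptgs2 and chr2:30903248-30903547 on the minus strand for Ptges. Capitals mark matches, on either strand, to any of 6 motifs.
Ptgs1: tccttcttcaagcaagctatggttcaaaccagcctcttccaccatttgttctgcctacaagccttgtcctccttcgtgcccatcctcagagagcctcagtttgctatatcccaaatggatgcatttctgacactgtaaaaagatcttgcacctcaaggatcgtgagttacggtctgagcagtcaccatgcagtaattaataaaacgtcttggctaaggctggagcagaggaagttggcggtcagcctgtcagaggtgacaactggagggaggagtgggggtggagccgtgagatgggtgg
Ptgs2: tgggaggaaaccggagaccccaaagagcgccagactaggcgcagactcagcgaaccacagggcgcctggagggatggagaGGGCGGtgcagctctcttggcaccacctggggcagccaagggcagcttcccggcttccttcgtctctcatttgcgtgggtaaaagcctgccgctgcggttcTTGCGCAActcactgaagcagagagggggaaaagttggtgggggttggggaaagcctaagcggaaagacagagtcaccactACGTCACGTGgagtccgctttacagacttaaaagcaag
Ptges: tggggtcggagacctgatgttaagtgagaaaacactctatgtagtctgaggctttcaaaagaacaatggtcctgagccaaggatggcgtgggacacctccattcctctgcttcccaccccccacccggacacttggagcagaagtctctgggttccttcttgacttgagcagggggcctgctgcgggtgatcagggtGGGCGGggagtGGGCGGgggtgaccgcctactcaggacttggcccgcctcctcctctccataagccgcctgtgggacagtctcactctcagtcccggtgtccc
The motifs searched were the TATA box TATAAA, the core of the cyclic AMP response element ACGTCA, the E-box CACGTG, the palindromic C/EBP site TTGCGCAA, the Sp1 GC box GGGCGG and the palindromic glucocorticoid response element. Counting the first transcribed base as 1, the Ptgs2 window held the C/EBP palindrome at -69 to -62, a GC box at -170 to -165, the cyclic AMP element core at 13 to 18 and an E-box at 17 to 22, which overlaps that core. The Ptges window held 2 GC boxes, at -53 to -48 and -42 to -37. The Ptgs1 window held none of these letters, which says nothing of the factors. Of 32851 promoter windows of this length, 0.183% held the C/EBP palindrome, 7.51% the cyclic AMP element core, 7.15% the E-box, 35.7% the GC box, 13.6% the TATA box and 0.00913% the glucocorticoid element. A match describes the sequence and is not a site of binding.

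Per transcript length, the cyclooxygenase and PGE synthase genes were the most abundant of the 10 members. Mean FPKM over the 12 libraries was 95.4 for Ptges3, 64.8 for Ptges, 43.5 for Ptgs1, 20.4 for Ptgs2 and 9.56 for Ptges2. Tbxas1 and Hpgds followed at 1.72 and 1.60, and Ptger4, Ptger2 and Hpgd at 0.639, 0.278 and 0.220. The library ranges of neighbours in this order overlapped, except that every library of Ptges2 (7.03 to 12.0 FPKM) was above every library of Tbxas1 (0.0954 to 4.09 FPKM).

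**Figure D1:**
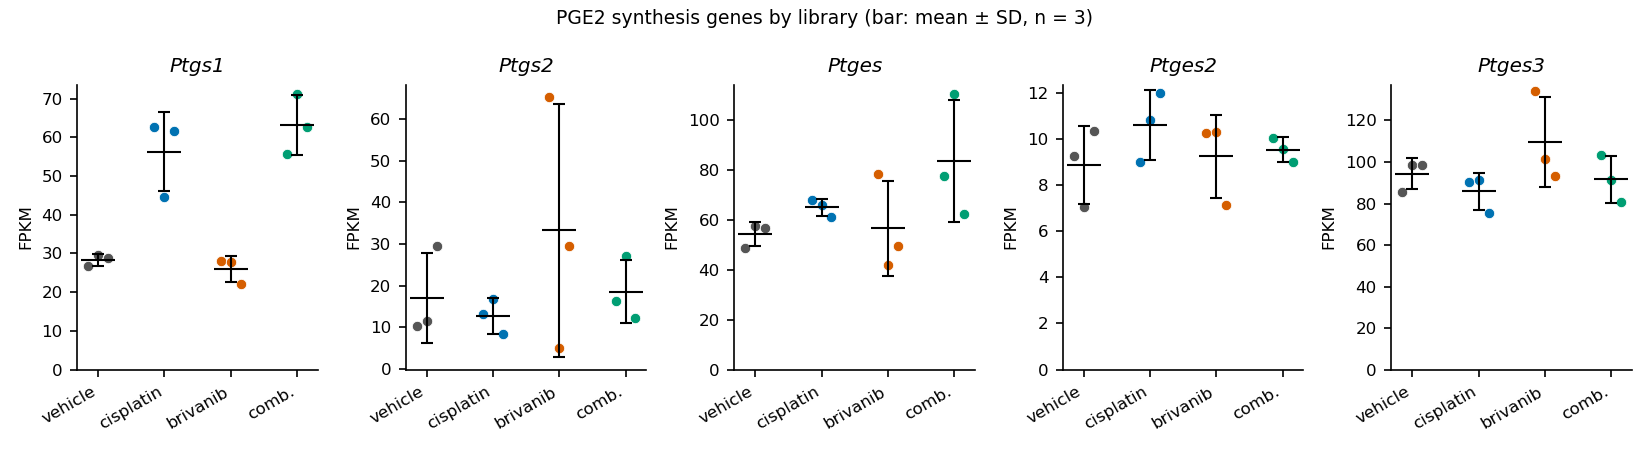
Level in FPKM (y axis, from 0) of the 5 cyclooxygenase and PGE synthase genes in the 12 libraries, by treatment group (x axis; comb., cisplatin and brivanib combined). Points are libraries, and bars are the mean ± SD with n = 3. The 6 libraries with cisplatin lie at 44.5 to 71.2 FPKM of Ptgs1 and the 6 without at 22.0 to 29.6, while Ptgs2 spans 4.96 to 65.1 FPKM within the brivanib group.

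Ptgs1, which encodes COX-1 (chromosome 2, 36230426 to 36252272), was higher in tumours of mice given cisplatin, with or without brivanib. It was at 26.7, 29.6 and 28.8 FPKM in vehicle libraries 2, 3 and 5 and at 62.7, 44.5 and 61.7 FPKM in cisplatin libraries 1, 2 and 3. Brivanib libraries 2, 3 and 5 held 28.1, 27.9 and 22.0 FPKM, and combination libraries 2, 3 and 4 held 55.7, 71.2 and 62.8 FPKM. No library with cisplatin overlapped a library without it, and cisplatin 2 was the lowest of those with it.

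Group means of Ptgs1 were 28.4 ± 1.50 FPKM in vehicle, 56.3 ± 10.3 in cisplatin, 26.0 ± 3.44 in brivanib and 63.2 ± 7.76 in the combination (SD, n = 3). On the scale of log2(FPKM + 1), where the added 1 shrinks changes of low genes, cisplatin differed from vehicle by 0.95 ± 0.15 (SE). The combination differed from brivanib by 1.25 ± 0.15 and from vehicle by 1.12 ± 0.15 on the same scale. Over the 28 alternative settings these values were 0.82 to 1.11, 1.14 to 1.54 and 0.96 to 1.21. Cisplatin against vehicle shares no library with the combination against brivanib, but shares its vehicle libraries with the combination against vehicle.

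For Ptgs1, brivanib alone differed from vehicle by -0.13 ± 0.15 (95% interval -0.45 to 0.19), and the combination from cisplatin by 0.17 ± 0.15 (-0.15 to 0.49). The interaction, which asks whether brivanib acted differently with and without cisplatin, was 0.30 ± 0.21 (95% interval -0.15 to 0.76).

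The main Ptgs1 transcript was split between the groups in the same way. The protein-coding transcript of 2867 bases made up 69.6% to 86.2% of the Ptgs1 FPKM. It was at 20.2, 21.7 and 23.4 FPKM in vehicle 2, 3 and 5, at 48.8, 34.6 and 47.3 in cisplatin 1, 2 and 3, at 22.1, 24.0 and 16.9 in brivanib 2, 3 and 5, and at 44.1, 49.5 and 47.9 in combination 2, 3 and 4. Recovered Ptgs1 fragments numbered 1093 to 1597 per library without cisplatin and 2473 to 3595 with it. An antisense gene model shares 3.81% of the exon bases of Ptgs1, and no strand setting is named in the sources used here.

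**Figure D2:**
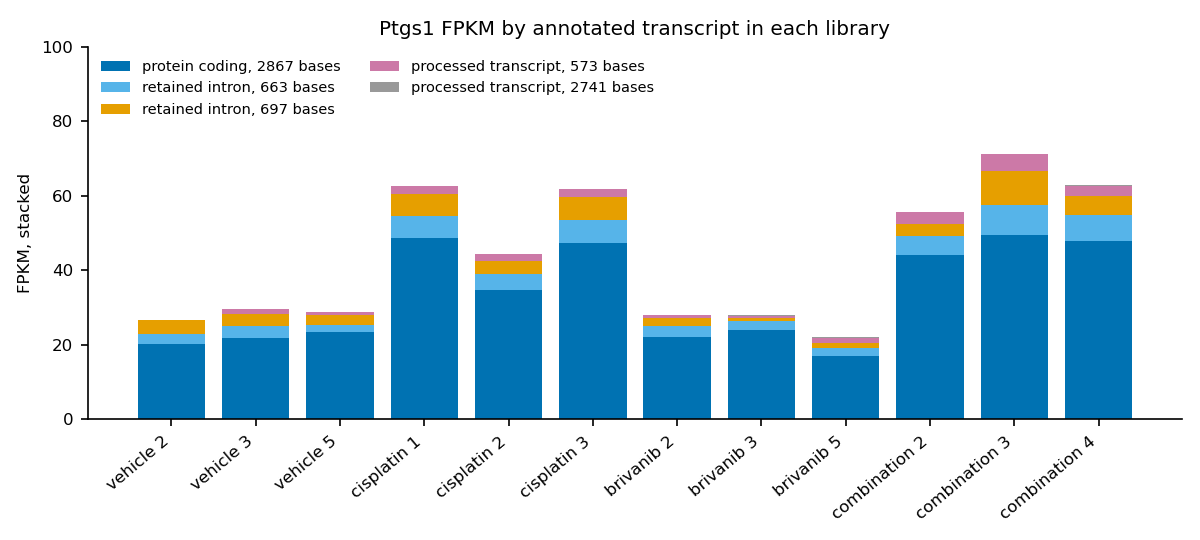
Ptgs1 level in each of the 12 libraries (x axis), stacked by annotated transcript in FPKM (y axis, from 0). The dark blue part, the protein-coding transcript of 2867 bases, is at 16.9 to 24.0 FPKM without cisplatin and at 34.6 to 49.5 FPKM with it.

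The genes most alike to Ptgs1 across the 12 libraries were Fkbp5, which encodes a co-chaperone of the glucocorticoid receptor, Ccdc14, and Sgk1, a kinase gene induced by serum and glucocorticoids. Pearson's r of log2(FPKM + 1) was 0.962, 0.959 and 0.955, a description over libraries that share their groups. Fkbp5 was at 39.7 to 43.1 FPKM in vehicle, 56.4 to 113 in cisplatin, 35.3 to 44.1 in brivanib and 87.6 to 139.6 in the combination.

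Erythroid and T cell markers were lower in every library with cisplatin than in every library without it. The summed level of 8 erythroid markers was 1607 to 3086 FPKM in vehicle and 449 to 2939 in brivanib, but 4.44 to 99.6 in cisplatin and 4.57 to 16.5 in the combination. All 5 tested erythroid genes fell in the combination against brivanib, where 3.87% of all tested genes were called. The 9 T cell markers, of which 3 were tested and 0 called in any contrast, summed to 6.66 to 31.3 FPKM without cisplatin and to 1.15 to 5.62 with it. With the mean log2 level of a list as its score, r with Ptgs1 over the 12 libraries was -0.866 for erythroid and -0.74 for T cell markers, the farthest from 0 of 13 lists. The 10 adipocyte markers summed to 12.7 to 13.7 FPKM in vehicle, 6.81 to 53.8 in cisplatin, 21.3 to 245 in brivanib and 79.2 to 298 in the combination (r = 0.304). With their score as a covariate, Ptgs1 in the combination against vehicle was 0.96 in place of 1.12. None of these 3 lists had a gene at 0 in every library. Platelets are a known site of COX-1, and r of their marker score with Ptgs1 was 0.131. Of the 9 platelet and megakaryocyte markers 3 were tested, and Gp6 was listed at 0 throughout. Sums were 45.3 to 67.6 FPKM in vehicle, 53.6 to 146 in cisplatin, 90.9 to 215 in brivanib and 117 to 151 in the combination. The part of erythroid cells, T cells and platelets in the Ptgs1 levels was not tested. In bulk tumour RNA a change in the number of cells of a type cannot be told apart from a change in RNA per cell.

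Ptgs2, which encodes COX-2 (chromosome 1, 150100031 to 150108227), had its widest spread inside the brivanib group. Vehicle 2, 3 and 5 held 10.2, 11.5 and 29.4 FPKM, and cisplatin 1, 2 and 3 held 13.2, 16.7 and 8.29. Brivanib 2, 3 and 5 held 65.1, 4.96 and 29.6, so this group contains both the highest and the lowest of the 12 libraries, 13.1-fold apart. Combination 2, 3 and 4 held 16.3, 27.0 and 12.3 FPKM. All groups overlapped. A second Ptgs2 transcript of 358 bases was listed at 0.646, 0.375 and 0.664 FPKM in brivanib 2, 3 and 5 and at 0 in the other 9 libraries.

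Ptgs2 did not pass the test in any contrast (limma's moderated test, adjusted p under 0.05 by Benjamini-Hochberg over the 14246 genes tested). The difference from vehicle was -0.29 ± 0.70 on the log2 scale for cisplatin (95% interval -1.82 to 1.25), 0.50 ± 0.70 for brivanib (-1.03 to 2.03) and 0.20 ± 0.70 for the combination (-1.33 to 1.73). The brivanib value was -0.26 without brivanib 2 and 1.47 without brivanib 3. The genes most alike were Ier3, an immediate early response gene (r = 0.949), the neutrophil-attracting chemokine gene Cxcl1 (0.939) and the hypoxia-induced lipid droplet gene Hilpda (0.927). Hilpda stood at 157, 9.61 and 63.8 FPKM in brivanib 2, 3 and 5. The 8 neutrophil markers summed to 13.4 to 143 FPKM in brivanib, 7.57 to 27.8 in vehicle and 7.51 to 126 in cisplatin and the combination. For this list r with Ptgs2 was 0.705, beside 0.727 for platelet and 0.729 for epithelial and carcinoma markers. Of the 7 epithelial and carcinoma markers 2 were tested, Cdh1 and the mesenchymal gene Vim, and Krt18 was listed at 0 throughout. The part of neutrophils, platelets and epithelial cells in the Ptgs2 levels was not tested.

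Of the PGE synthase genes, Ptges encodes the inducible microsomal enzyme mPGES-1 (chromosome 2, 30889471 to 30929863). It was at 48.8, 57.6 and 56.5 FPKM in vehicle 2, 3 and 5, at 67.7, 66.0 and 61.1 in cisplatin 1, 2 and 3, at 78.0, 41.8 and 49.6 in brivanib 2, 3 and 5, and at 77.6, 110.4 and 62.3 in combination 2, 3 and 4. Every cisplatin and combination library was above every vehicle library, while brivanib 2 was above all 3 cisplatin libraries. The split of cisplatin from vehicle was not seen in the protein-coding transcript of 3647 bases, which was at 42.5 to 56.7 FPKM in vehicle and 50.4 to 64.5 in cisplatin, and at 60.1 to 109 in the combination. A processed transcript of 543 bases added 8.34, 0.0789 and 9.51 FPKM in cisplatin 1, 2 and 3 and 5.08, 0.249 and 0 in vehicle 2, 3 and 5. Recovered Ptges fragments, which are not scaled for depth, overlapped too, at 3727 to 4600 in vehicle, 3887 to 5508 in cisplatin and 3965 to 9157 in the combination.

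Ptges did not pass the test in any contrast. Its difference from vehicle was 0.26 ± 0.22 on the log2 scale for cisplatin (adjusted p = 0.647, limma) and 0.58 ± 0.22 for the combination (adjusted p = 0.192). In the combination against brivanib it was 0.57 ± 0.22 (adjusted p = 0.168), and 0.82 without brivanib 2 (adjusted p = 0.0484). Over the 28 alternatives the adjusted p of that last contrast was 0.0484 to 0.548. The galactosyltransferase gene B4galt1 (r = 0.975), the cell surface proteoglycan gene Sdc4 (0.972) and the stress-induced phosphatase subunit gene Ppp1r15a (0.97) were most alike.

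The constitutive PGE synthase genes varied less. Ptges2, which encodes the membrane-associated mPGES-2 (chromosome 2, 32395896 to 32405772), had group means of 8.88 ± 1.70 FPKM in vehicle, 10.6 ± 1.50 in cisplatin, 9.24 ± 1.81 in brivanib and 9.54 ± 0.530 in the combination (SD, n = 3). Its difference from vehicle had 95% intervals of -0.13 to 0.60 for cisplatin, -0.32 to 0.41 for brivanib and -0.26 to 0.47 for the combination on the log2 scale. Ptges3, which encodes the cytosolic synthase better known as the HSP90 co-chaperone p23 (chromosome 10, 128058954 to 128077272), had means of 94.3 ± 7.53, 85.8 ± 8.93, 109.8 ± 21.8 and 91.6 ± 11.4 FPKM in the same order. Its intervals were -0.45 to 0.18, -0.12 to 0.52 and -0.36 to 0.27. Neither gene passed in any contrast, and for both genes every treated group overlapped vehicle.

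The estimated split of Ptges3 between its coding transcripts varied within groups. The transcript of 1559 bases was at 35.3, 0 and 0 FPKM in brivanib 2, 3 and 5, and was listed at 0 in 6 libraries, of which every group held at least 1. Such splits between overlapping isoforms are RSEM estimates and are uncertain. In Ptges2 a retained-intron transcript took 2.58% to 38.3% of the gene's FPKM.

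**Figure D3:**
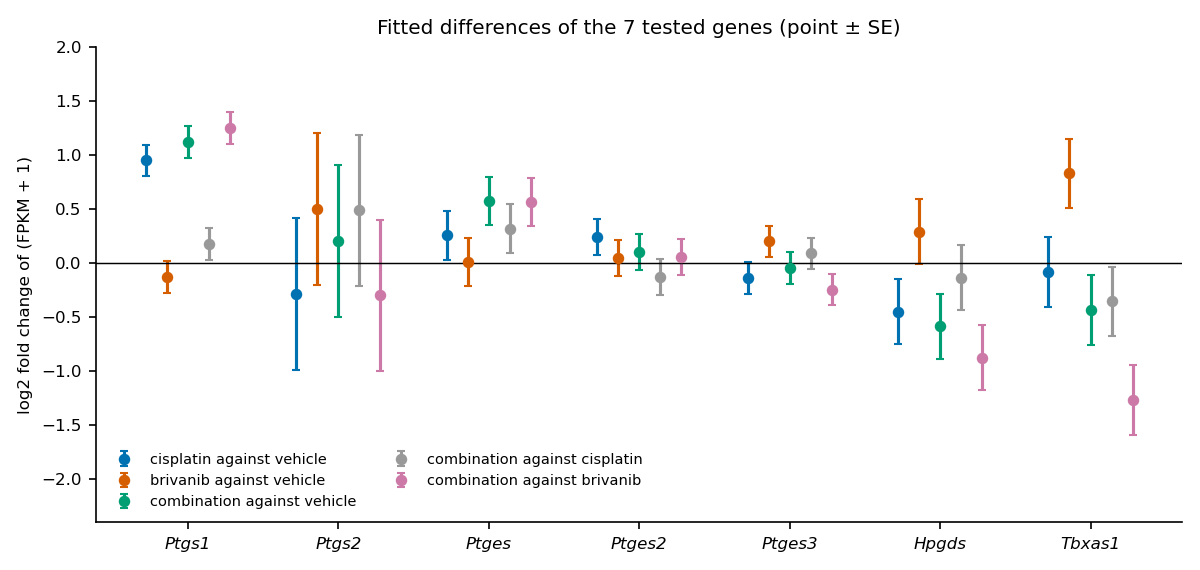
Fitted log2 fold change of (FPKM + 1) with its SE (y axis) for the 7 tested members (x axis) in the 5 pairwise contrasts, coloured by contrast. Ptgs1 lies at 0.95 to 1.25 in the 3 contrasts that set cisplatin or the combination against a group without cisplatin, Ptgs2 has the widest bars (± 0.70), and Tbxas1 has the lowest value, -1.27 in the combination against brivanib.

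The synthase genes of the other branches, Hpgd and the receptor genes were low and had their highest group means with brivanib alone. Tbxas1 encodes thromboxane A synthase, an enzyme of platelets and macrophages (chromosome 6, 38875404 to 39084585). It was at 1.34, 0.871 and 2.06 FPKM in vehicle 2, 3 and 5, at 1.80, 1.31 and 0.748 in cisplatin 1, 2 and 3, at 2.18, 4.09 and 3.63 in brivanib 2, 3 and 5, and at 0.924, 0.0954 and 1.56 in combination 2, 3 and 4. All brivanib libraries were above all others, and combination 3 was the lowest, with 10 recovered fragments. The protein-coding transcript of 1990 bases was also above all others in brivanib, at 1.30 to 2.65 FPKM against 0 to 1.24.

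Tbxas1 missed the threshold in every contrast. Its value was 0.83 ± 0.32 for brivanib against vehicle (adjusted p = 0.323, limma) and -1.27 ± 0.32 for the combination against brivanib (adjusted p = 0.0519). The latter was -0.93 without combination 3 (adjusted p = 0.161) and -1.54 without combination 4 (adjusted p = 0.0307), the lowest and highest adjusted p over 26 alternatives being 0.0307 and 0.161. The interaction was -1.18 ± 0.46 (adjusted p = 0.396).

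Hpgds encodes the haematopoietic prostaglandin D synthase, known from mast cells and macrophages (chromosome 6, 65117293 to 65144908). It was at 1.48, 2.66 and 1.45 FPKM in vehicle 2, 3 and 5, at 1.43, 0.863 and 0.920 in cisplatin 1, 2 and 3, at 2.48, 1.89 and 3.04 in brivanib 2, 3 and 5, and at 0.763, 0.238 and 2.02 in combination 2, 3 and 4. Every cisplatin library was below every vehicle library, by as little as 1.43 against 1.45 FPKM, while brivanib overlapped vehicle and combination 4 overlapped brivanib. The protein-coding transcript, 37.5% to 76.9% of the Hpgds FPKM, did overlap, at 1.10, 0.604 and 0.434 FPKM in cisplatin 1, 2 and 3 and 0.990, 0.998 and 0.794 in vehicle 2, 3 and 5. The rest was assigned to retained-intron transcripts. Recovered fragments overlapped as well, at 45 to 93 in cisplatin and 69 to 113 in vehicle. The fitted difference from vehicle was -0.45 ± 0.30 for cisplatin, 0.29 ± 0.30 for brivanib and -0.58 ± 0.30 for the combination, none of which passed. The combination against brivanib was at -0.88 ± 0.30 (adjusted p = 0.119, limma), and at -1.22 without combination 4 (adjusted p = 0.0311). Over 26 alternatives its adjusted p was 0.0311 to 0.336.

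**Figure D4:**
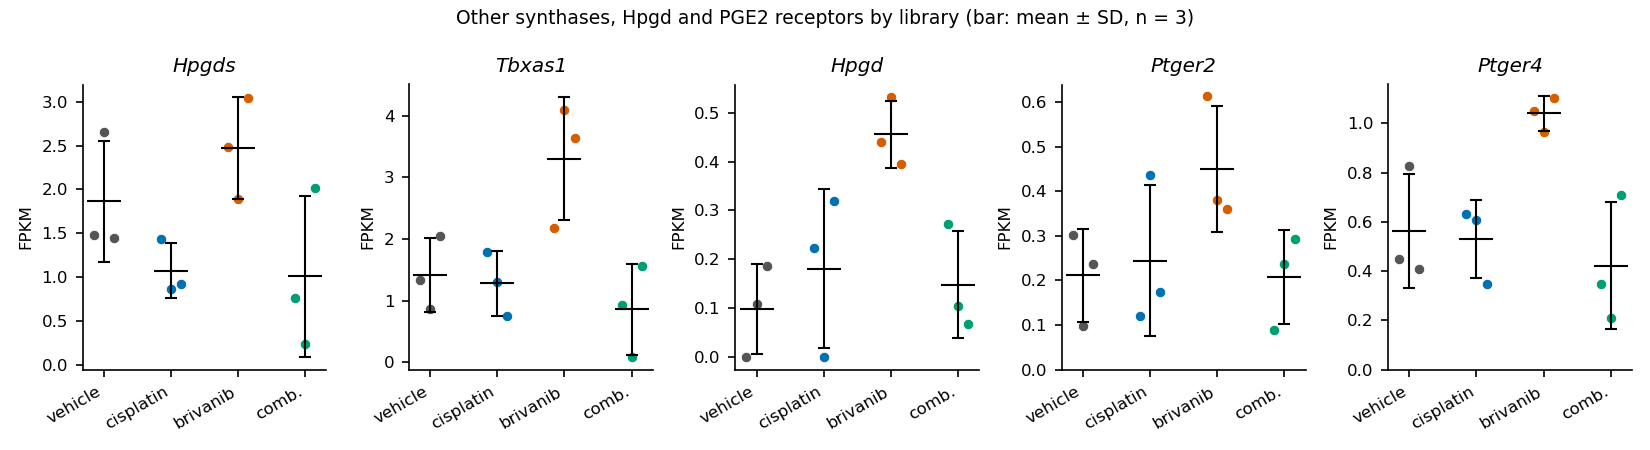
Level in FPKM (y axis, from 0) of Hpgds, Tbxas1, Hpgd, Ptger2 and Ptger4 in the 12 libraries by treatment group (x axis). Points are libraries, and bars are the mean ± SD with n = 3. The brivanib libraries of Tbxas1, Hpgd and Ptger4 lie above all other libraries of the same gene, with Ptger4 at 0.966 to 1.10 FPKM against 0.210 to 0.827.

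Hpgd encodes 15-hydroxyprostaglandin dehydrogenase, which inactivates PGE2 (chromosome 8, 56294585 to 56321043). It had 0 fragments in vehicle 2 and cisplatin 2, where a count of 0 allows up to 3 fragments, or 0.0757 and 0.0764 FPKM, a limit that covers counting error only. Vehicle 3 and 5 held 0.107 and 0.186 FPKM, cisplatin 1 and 3 held 0.222 and 0.318, and combination 2, 3 and 4 held 0.273, 0.103 and 0.0660. Brivanib 2, 3 and 5 held 0.440, 0.532 and 0.396 FPKM, or 16, 20 and 14 fragments, above all other libraries, which had 0 to 11 fragments.

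The receptor genes also had their highest levels with brivanib alone. Ptger4 (chromosome 15, 5206661 to 5244187) was at 0.451, 0.827 and 0.409 FPKM in vehicle 2, 3 and 5, at 0.634, 0.608 and 0.349 in cisplatin 1, 2 and 3, at 1.05, 0.966 and 1.10 in brivanib 2, 3 and 5, and at 0.346, 0.210 and 0.709 in combination 2, 3 and 4. Brivanib did not overlap the other groups. An antisense gene model, Gm15937, shares 15.3% of the exon bases of Ptger4, and without a strand setting their reads cannot be told apart.

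Ptger2 (chromosome 14, 44988195 to 45003820) was at 0.301, 0.0972 and 0.236 FPKM in vehicle 2, 3 and 5, at 0.121, 0.437 and 0.173 in cisplatin 1, 2 and 3, at 0.612, 0.379 and 0.359 in brivanib 2, 3 and 5, and at 0.0893, 0.238 and 0.293 in combination 2, 3 and 4. Brivanib was above vehicle and the combination but overlapped cisplatin. These levels rest on 6 to 39 fragments per library, and 42.6% to 100% of the Ptger2 FPKM was assigned to a retained-intron transcript. The protein-coding transcript overlapped between brivanib (0 to 0.176 FPKM) and vehicle (0 to 0.173), as did fragments (20 to 39 and 6 to 23). With no filter on low values, Hpgd, Ptger2 and Ptger4 did not pass in any contrast, and their smallest adjusted p in limma was 0.12, for Ptger4 in the combination against brivanib (-0.54 ± 0.15).

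Markers of other cells were followed over the same groups, with r given for Tbxas1 and Hpgds only. The 12 macrophage markers summed to 666 to 887 FPKM in brivanib and 243 to 428 in vehicle. Their sums were 249 to 561 in cisplatin and 193 to 643 in the combination. Of the 12, 2 rose with brivanib against vehicle, where 1.81% of all tested genes were called. The 10 mast cell markers summed to 30.6 to 52.1 FPKM in brivanib and to 7.91 to 14.2 in all other libraries, and 4 of 7 tested rose. The 10 fibroblast markers summed to 1589 to 2118 FPKM in brivanib and to 323 to 1198 elsewhere, and 3 of 10 rose. The 8 pericyte and smooth muscle markers summed to 64.5 to 108 FPKM in brivanib and to 15.3 to 32.7 elsewhere, and 2 of 5 tested rose. Skeletal muscle marker sums were 1.25 to 291 FPKM in brivanib and 1.63 to 2.31 in vehicle. They were 1.30 to 23.0 in cisplatin and 0.854 to 46.95 in the combination. The skeletal muscle score of brivanib 2, 0.149, was below that of every vehicle library (0.16 to 0.233). None of these 5 lists had a gene at 0 in every library. For Tbxas1, r with the list scores was 0.89 for fibroblast, 0.822 for pericyte and smooth muscle, 0.792 for macrophage, 0.75 for mast cell and 0.64 for skeletal muscle markers. For Hpgds it was 0.754 for macrophage, 0.64 for erythroid, 0.616 for fibroblast, 0.599 for mast cell and 0.562 for pericyte and smooth muscle markers. These describe libraries that share their groups, and the part of these cells in the levels was not tested. The genes most alike to Tbxas1 were Cd74 (r = 0.948) and H2-Aa (0.938) of MHC class II presentation, and BC037039 (0.931). Those most alike to Hpgds were Anp32a (0.934), the complement gene C1qc (0.902), which is itself on the macrophage list, and Cd83 (0.889).

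**Figure D5:**
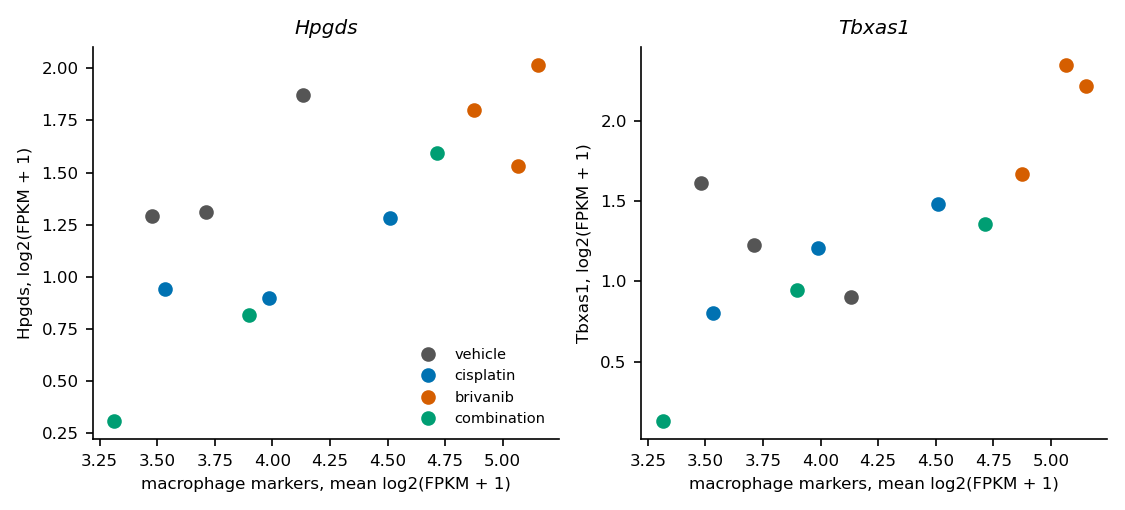
Level of Hpgds (left) and Tbxas1 (right) as log2(FPKM + 1) on the y axis against the mean log2(FPKM + 1) of 12 macrophage markers on the x axis, with 1 point per library coloured by group. Combination 3 lies at the lower left of both panels (r = 0.754 and 0.792, 12 libraries).

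Of the 7 tested members, 1, Ptgs1, was called in cisplatin against vehicle, where 0.19% of all tested genes were called. Brivanib against vehicle called 0 of 7 by limma, with 1 at an unadjusted p under 0.05 (Tbxas1; 11.7% of all tested genes), 0 by limma-voom on recovered fragments, and a background of 1.81%. The combination called 1 of 7 against vehicle (background 2.34%) and 1 of 7 against brivanib (background 3.87%), Ptgs1 in both cases. Since the list was made with the higher Ptgs1 level with cisplatin known, nothing is read from these 3 counts. At an unadjusted p under 0.05, limma had 1 of 7 in cisplatin against vehicle (background 14.3%). It had 2 of 7 in the combination against vehicle (Ptgs1 and Ptges, background 18.8%). Against brivanib the combination had 4 of 7 (Ptgs1, Ptges, Hpgds and Tbxas1, background 21.7%). Ptgs1 is in each of these counts, and nothing is read from them either. Against cisplatin the combination called 0 of 7 by limma (background 0%), with 0 at an unadjusted p under 0.05 (background 6.74%) and 0 by limma-voom. The interaction called 0 of 7 (background 0.14%), with 1 at an unadjusted p under 0.05 (background 10%) and 0 by limma-voom. Counting members whose groups did not overlap, cisplatin was above vehicle for 2 of 7 (background 17%) and below for 1 (6.72%), and brivanib was above vehicle for 1 (8.95%) and below for 0 (6.9%). The combination was above vehicle for 2 (17.2%) and below for 0 (9.35%), above cisplatin for 0 (4.94%) and below for 0 (7.44%), and above brivanib for 1 (14.1%) and below for 1 (9.14%). Over all 10 members, with the 3 low ones, brivanib was above vehicle for 4 and the combination below brivanib for 4, namely Tbxas1, Hpgd, Ptger2 and Ptger4 in both, and the other counts were the same. These 2 comparisons share the brivanib libraries, and the backgrounds cover tested genes only. The counts over all 10 members thus have no background beside them, and nothing is read from them. Against vehicle, the median log2 fold change of the 7 was -0.08 with cisplatin, 0.20 with brivanib and 0.11 with the combination, beside 0.07, -0.01 and 0.04 over all genes tested. For the combination it was 0.09 against cisplatin and -0.25 against brivanib (3 members above 0 and 4 below), beside -0.02 and 0.04, and for the interaction -0.11 beside -0.02.

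The rest of the pathway was described from 7 lists with 105 genes, of which 65 were tested. Cisplatin against vehicle called 0 of 65 by limma (background 0.19%), with 16 at an unadjusted p under 0.05 (background 14.3%) and 0 by limma-voom. Brivanib against vehicle called 4, all higher (6.15%, background 1.81%). The combination called 2 against vehicle, both higher (3.08%, background 2.34%), and 4 against brivanib, 3 higher and 1 lower (6.15%, background 3.87%). The combination against cisplatin called 0 (background 0%), with 7 at an unadjusted p under 0.05 (background 6.74%) and 0 by limma-voom. The interaction called 1, lower (1.54%, background 0.14%).

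Upstream, Pla2g7 encodes a secreted phospholipase that degrades platelet-activating factor. It was the most abundant of the arachidonate release list at 70.0 to 108 FPKM. That list holds phospholipase A2 genes and also Pnpla2, Mgll, Faah and Daglb. Pla2g4a, the cytosolic phospholipase A2 gene, was named outside the rule and was at 16.5 to 37.1 FPKM. The 10 tested genes of that list had 0 calls in the 6 contrasts. Among the other synthases, the prostacyclin synthase gene Ptgis (chromosome 2, 167191805 to 167240604) was at 3.95, 1.70 and 2.65 FPKM in vehicle 2, 3 and 5 and at 8.54, 4.88 and 6.67 in brivanib 2, 3 and 5. It rose by 1.05 ± 0.22 with brivanib (adjusted p = 0.0326, limma), the sole call among 4 tested, which held in 14 of 27 alternatives and was 0.88 without brivanib 2 (adjusted p = 0.101). Akr1b3, an aldose reductase gene with prostaglandin F synthase activity, was the most abundant of that list at 64.9 to 98.9 FPKM and did not pass.

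Of 8 other receptor-related genes, Ptger1 and Ptgfrn reached the level for testing. Ptgfrn, which encodes a membrane protein that regulates the prostaglandin F receptor (chromosome 3, 101040232 to 101110278), was at 0.221, 0.0534 and 0.417 FPKM in vehicle 2, 3 and 5, at 2.06, 0.524 and 0.755 in cisplatin 1, 2 and 3, at 5.55, 4.70 and 4.97 in brivanib 2, 3 and 5, and at 1.37, 0.490 and 1.28 in combination 2, 3 and 4. All brivanib libraries were above all others. Ptgfrn rose by 2.31 ± 0.27 with brivanib (adjusted p = 0.002, limma), a call that held in 27 of 27 alternatives. In the combination against brivanib it was at -1.60 ± 0.27 (adjusted p = 0.0126), and at -1.38 without combination 3 (adjusted p = 0.0617). The prostaglandin D2 receptor gene Ptgdr was listed at 0 in every library.

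In the leukotriene branch 2 of 9 tested genes rose with brivanib. Alox5ap, whose product presents arachidonic acid to 5-lipoxygenase, was at 14.4 to 17.9 FPKM in vehicle and 28.3 to 48.1 in brivanib (1.23 ± 0.22, adjusted p = 0.0142, limma), a call that held in 20 of 28 alternatives (adjusted p of 0.00588 to 0.185) and was lost without vehicle 2 or 3 or brivanib 3 or 5. Ltc4s, the leukotriene C4 synthase gene, was listed at 0 in all vehicle libraries and at 2.68 to 3.20 FPKM in brivanib (adjusted p = 0.0178), a call that held in 19 of 26 (adjusted p of 0.00246 to 0.188) and was lost without any of the vehicle libraries or without brivanib 3 or 5. Mgst3, a microsomal glutathione transferase gene, was higher in the combination than in brivanib (0.56 ± 0.13, adjusted p = 0.0377), but that call held in only 7 of 28 alternatives. Lta4h, the leukotriene A4 hydrolase gene, was the most abundant of the list at 54.0 to 67.5 FPKM and did not pass. The 5 tested transport and breakdown genes had 0 calls in the 6 contrasts.

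Of 20 tested cyclic AMP signalling genes 1 rose, Prkacb, which encodes a catalytic subunit of protein kinase A. It was higher in the combination by 0.78 ± 0.14 against vehicle and by 0.83 ± 0.14 against brivanib (adjusted p = 0.0218 and 0.0126, limma), calls that held in 19 of 28 and 27 of 28 alternatives. Without combination 3 they were 0.68 and 0.73 (adjusted p = 0.0813 and 0.0619). Gnas, the stimulatory G protein subunit gene, was the most abundant at 229 to 349 FPKM. Of 15 tested regulators of Ptgs2 and Ptges, 1 rose, Tsc22d3, which encodes the glucocorticoid-induced leucine zipper GILZ. It was at 15.6 to 24.1 FPKM in vehicle, 22.4 to 75.6 in cisplatin, 16.4 to 20.2 in brivanib and 64.8 to 216 in the combination. It rose by 2.41 ± 0.46 in the combination against vehicle and by 2.49 ± 0.46 against brivanib (adjusted p = 0.0235 and 0.0167), calls that held in 20 of 28 and 26 of 28 alternatives. Without combination 3, the highest library, the values were 1.90 and 1.98 (adjusted p = 0.0783 and 0.063). Anxa1, whose annexin restrains phospholipase A2, was the most abundant of that list at 679 to 1356 FPKM and did not pass.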

How the data were processed

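Tumour RNA was sequenced as 12 libraries, 3 per treatment group. Per the labels' design text, the authors aligned BGISEQ-500 reads to mm10 with Bowtie2 and made the deposited FPKM values with RSEM. The submitters' processing notes also list HISAT, Bowtie, Bowtie2 2.2.5, RSEM 1.2.12 and build mm9. The members' starts and ends in the deposited table matched GENCODE annotation on GRCm38 (mm10). A further 1 column of per-sample values fitted no label and was not used, and 3 broken lines were dropped. Transcript FPKM values were summed to genes. FPKM times the deposited transcript length went in whole steps (100% of values up to 100 fragments, within 0.01), which gave fragments.

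Differences were fitted with limma 3.58.1 (R 4.3.3) on log2(FPKM + 1), with group means over all 12 libraries (8 residual degrees of freedom), variances moderated along a trend with the mean, genes of mean FPKM at least 1 (14246), two-sided tests and Benjamini-Hochberg adjustment at 0.05. The procedure was tested on simulated data in which every gene had the same setting for its spread among libraries. That test does not cover widely spread genes such as Ptgs2, and nothing about these results is read from it. Members and lists were chosen with earlier results of these data known. Named pathway genes were those called in any contrast and the most abundant of each list, plus the 3 genes most alike to each tested member. The 28 alternatives covered pseudocount, filter, scaling, trend, libraries left out, replicate block, tissue scores, limma-voom on recovered fragments and single transcripts. Against vehicle, limma-voom called 8 genes with cisplatin, 169 with brivanib and 69 with the combination. The combination differed in 2 genes from cisplatin and in 409 from brivanib by that test. The values of Ptger1, the EP1 receptor gene, are not reported here.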

Additional observations from a re-analysis of the deposited data

Results flagged for a closer look

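The effect of brivanib on Ptgfrn differed with and without cisplatin. In limma's interaction test the difference was -2.32 ± 0.38 on the log2 scale (adjusted p = 0.0474). The value for brivanib was 2.31 ± 0.27 without cisplatin and -0.01 ± 0.27 with it. The interaction was called in 5 of 27 alternatives, with values of -4.81 to -2.02 and adjusted p of 0.0321 to 0.232. It missed the threshold when any library other than cisplatin 2 was left out.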

How the results depend on the processing

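Of 12 counts of calls, 5 stayed the same in 28 of 28 alternatives, and each of these 5 was a count of 0. Every count with a call in the main fit moved in some alternative. No named pathway gene that was called reversed its direction. Ptgs1, the sole called member, was selected with its higher level with cisplatin known, so nothing is read from its calls or direction. The count of members called in cisplatin against vehicle was 0 with no filter, equal FPKM totals, quantile normalization, no trend, the adipocyte score, either limma-voom fit and the most abundant transcript. In the combination against vehicle it was 0 with equal totals, the adipocyte score and limma-voom on all fragments, and against brivanib it was 2 with limma-voom without ribosomal-like fragments, an alternative chosen after seeing the data. Pathway calls in brivanib against vehicle were 7 with no filter, 1 with a mean of at least 5 FPKM, 2 with equal totals, 1 with the muscle score, and 2 with the adipocyte score, limma-voom or the most abundant transcript. In the combination against vehicle they were 0 with no filter or the adipocyte score and 1 with limma-voom or the most abundant transcript, and against brivanib 7 with the muscle score. The interaction call was 0 with a pseudocount of 0.1 or 0.5, no filter, a mean of at least 5 FPKM, ribosomal-like features removed, quantile normalization, either tissue score, either limma-voom fit and the most abundant transcript.

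Leaving out 1 library gave 0 to 1 members in cisplatin against vehicle and 1 to 3 in the combination against brivanib. Pathway calls then ran from 1 to 5 in brivanib against vehicle, 0 to 3 in the combination against vehicle, 0 to 7 against brivanib and 0 to 1 in the interaction. The labels do not say what the library numbers mean. Between same-numbered libraries, deviations from group means correlated at -0.157 to 0.213, above 0.1 in 2 of 13 pairs. With 3 libraries per group, these values cannot exclude a shared batch. With the replicate number as a block (4 residual degrees of freedom), members called were 0 in cisplatin against vehicle and 0 in the combination against vehicle, and pathway calls were 0 in the combination against vehicle and 0 in the interaction. Over all settings, the count among all genes was 0 to 100 for cisplatin, 65 to 377 for brivanib and 5 to 523 for the combination against vehicle, 0 to 3 for the combination against cisplatin, 61 to 634 against brivanib and 0 to 45 for the interaction. Low fragment numbers limit Hpgd, Ptger2 and Ptger4. Tbxas1 and Hpgds gave no value under the filter of 5 FPKM or the most abundant transcript.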
